A study of Caenorhabditis elegans with 2 samples.

Results

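Among the regions recovered by immunoprecipitation in worms with tagged T23F11.4, 397 lay at genes that the genome annotation classes only as ncRNA, with no more specific RNA type. A region was chosen by its value in the list called on both replicates together, a signal of at least 80, and by its position, a summit within 500 bp of an Ensembl ncRNA gene. Regions within 500 bp of a tRNA, snoRNA, snRNA, rRNA or miRNA gene were left out. The pooled list held 29999 regions on the nuclear chromosomes, of which 2263 reached the signal minimum and 1905 of these were clear of the left-out gene classes. The 397 are 20.8% of those 1905. They were set beside the other 1508, with no RNA gene of any of these classes within 500 bp, and beside 2532 weaker regions at ncRNA genes. The 1508 are called as strong because they reached the same minimum, but signal was not matched. The median was 97.7 for chosen regions and 91.0 for the 1508, and the third quartile 120 and 108.6.

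Chromatin immunoprecipitation and sequencing was performed on whole Caenorhabditis elegans of strain OP709, an unc-119(tm4063) mutant that carries the insertion wgIs709, with T23F11.4 fused to TY1, EGFP and 3xFLAG and an unc-119(+) rescue copy. Both samples shared this genotype, the late embryonic stage at an age of 4 hours, mixed sex, synchronisation by egg bleaching and sonication to 200 to 800 bp. They form 1 group of 2 biological replicates of 1 line, with no untagged or input sample analysed here. The authors' lists were derived from the alignments together with a control, per the deposited notes. The labels' free text names an anti-GFP antibody, whereas their antibody field names T23F11.4, so the antibody is not settled by them. The promoter that drives the transgene is not given in the sources used here, and the lists hold no expression values with which to check the stage. The signal is the authors' value per region; read counts are not in the lists, so the depth behind a value is unknown.

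T23F11.4 is annotated as a protein with C2H2 zinc finger domains, a fold that often binds DNA. The ncRNA class of the worm annotation gathers mostly short transcripts named only by clone and number, whose functions are unknown. It also holds a few RNAs of known function that the annotation does not place elsewhere. These are rpr-1, the RNA of RNase P, which trims the 5′ ends of tRNAs, mrpr-1, the RNA of the related RNase MRP, which cuts precursor ribosomal RNA, and the srpr genes, which encode the RNA scaffold of the signal recognition particle that guides secreted proteins to the endoplasmic reticulum. In eukaryotes in general these RNAs are made by RNA polymerase III, the enzyme that also makes tRNAs and 5S rRNA.

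The sequences around the genes on which the results turn are shown first, all from RefSeq's copy of the WBcel235 (ce11) assembly, on the strand of the ncRNA gene and 5′ to 3′. The srpr genes are a family of related copies, 4 of them near-identical, so the 100 bases that run from 75 bases before the annotated start to 25 bases into the gene are set against each other. Capitals mark the 27 of 100 positions at which all 5 genes have the same base. Of these, 22 lie inside the gene and 5 before it.
srpr-1.1 at chrIII:4379182-4379281, minus strand: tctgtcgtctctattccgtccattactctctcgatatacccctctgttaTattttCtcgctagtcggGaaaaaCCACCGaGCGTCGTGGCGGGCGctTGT
srpr-1.2 at chrIII:4369393-4369492, plus strand: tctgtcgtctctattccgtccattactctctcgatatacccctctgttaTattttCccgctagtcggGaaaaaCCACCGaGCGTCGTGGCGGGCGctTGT
srpr-2.1 at chrIII:5211145-5211244, plus strand: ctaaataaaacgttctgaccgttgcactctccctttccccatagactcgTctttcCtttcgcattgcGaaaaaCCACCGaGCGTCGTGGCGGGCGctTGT
srpr-2.2 at chrIII:5031684-5031783, minus strand: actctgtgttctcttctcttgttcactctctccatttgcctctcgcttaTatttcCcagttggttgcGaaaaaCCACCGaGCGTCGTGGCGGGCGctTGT
srpr-3 at chrV:9293608-9293707, minus strand: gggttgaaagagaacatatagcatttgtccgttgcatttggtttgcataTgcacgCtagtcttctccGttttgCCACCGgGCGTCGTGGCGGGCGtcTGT

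The same 100 bases are shown for mrpr-1 and for F08G2.13 and W01D2.7, a pair of unnamed genes among the 20 strongest regions, because each holds TATA letters upstream of its start. Capitals mark TATAAA or TATATA upstream and, in mrpr-1, AACCC followed 6 bases later by TGTC.
mrpr-1 at chrII:7200158-7200257, plus strand: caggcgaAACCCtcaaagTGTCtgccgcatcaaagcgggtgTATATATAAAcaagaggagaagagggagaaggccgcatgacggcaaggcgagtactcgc
F08G2.13 at chrII:13834499-13834598, minus strand: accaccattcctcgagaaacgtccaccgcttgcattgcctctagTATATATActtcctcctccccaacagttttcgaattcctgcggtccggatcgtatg
W01D2.7 at chrII:14804427-14804526, plus strand: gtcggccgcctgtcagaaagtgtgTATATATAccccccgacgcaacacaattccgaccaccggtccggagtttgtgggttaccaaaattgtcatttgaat

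For 4 other regions the 101 bases centred on the summit are shown, as examples of the AC and GA repeats described below. Capitals mark ACACACAC, GAGAGA or their reverse complements.
T23F11.9 at chrIII:4666845-4666945, plus strand: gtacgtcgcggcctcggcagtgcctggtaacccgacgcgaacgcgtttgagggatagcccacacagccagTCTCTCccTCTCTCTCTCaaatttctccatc
C14F11.14 at chrX:6207808-6207908, plus strand: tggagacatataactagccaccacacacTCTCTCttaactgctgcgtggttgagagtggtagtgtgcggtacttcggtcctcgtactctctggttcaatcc
T13H2.7 at chrX:4606471-4606571, minus strand: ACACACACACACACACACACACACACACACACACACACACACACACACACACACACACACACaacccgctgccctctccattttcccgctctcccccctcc
F46F2.12 at chrX:15275453-15275553, plus strand: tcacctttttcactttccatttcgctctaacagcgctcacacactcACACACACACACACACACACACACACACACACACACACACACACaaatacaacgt

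The genes F52D10.7 and F52D10.9 lie side by side and both hold a strong summit. Their longest common stretch is 11 bases, and capitals mark the 30 of 70 positions around it at which both have the same base.
F52D10.7 at chrX:11605884-11605953, minus strand: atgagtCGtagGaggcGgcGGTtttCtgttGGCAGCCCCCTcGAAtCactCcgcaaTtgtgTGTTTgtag
F52D10.9 at chrX:11606140-11606209, minus strand: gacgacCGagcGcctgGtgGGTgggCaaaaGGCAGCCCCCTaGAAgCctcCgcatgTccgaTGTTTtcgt

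The chosen regions covered a wide range of signal, and most sat near its lower end. Their pooled signal ran from 80.03 to 697, with quartiles of 87.1, 97.7 and 120. Signal was at least 200 in 22 regions. In replicate 1 the overlapping regions had signals of 15.2 to 272 with a median of 38.3 (n = 390), and in replicate 2 of 25.9 to 432 with a median of 63.3 (n = 397). Values were generally higher in the list of replicate 2. Its signal divided by that of replicate 1 had a median of 1.69 at the chosen regions and of 1.75 at as strong regions with no RNA gene.

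All 397 regions overlapped a region of replicate 2, and 390 (98.2%) overlapped one of replicate 1. Over all 2263 regions at the signal minimum these shares were much the same, 99.96% and 98.23%. The summits of both replicates lay within 100 bp of the pooled summit for 334 of the chosen regions (84.1%), against 82.3% of as strong regions with no RNA gene. Among the 2263 strongest regions of each replicate alone, 203 of the chosen regions were present in both (51.1%, 95% Wilson interval 46.2% to 56.0%). The share over all regions at the signal minimum was 44.8%, and it was 36.2% for the 1508 regions with no RNA gene. These shares rest on the same reads as the pooled signal that chose the regions and are a description, not independent support. Across 390 chosen regions, which share both libraries, the rank correlation (Spearman's rho) between the replicate signals was 0.294, and Pearson's r was 0.509 on the log2 scale. The values for as strong regions with no RNA gene were 0.115 and 0.365 (n = 1477). Over all regions at the signal minimum they were 0.309 and 0.587 (n = 2222), so the chosen regions did not exceed that background. Within the 278 chosen regions outside the optimal set rho was -0.327. Pooled signal outside the optimal set was bounded on both sides, from 80.03 to 115.6. All these correlations are within sets cut by the pooled signal, which rests on both replicates.

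**Figure D1:**
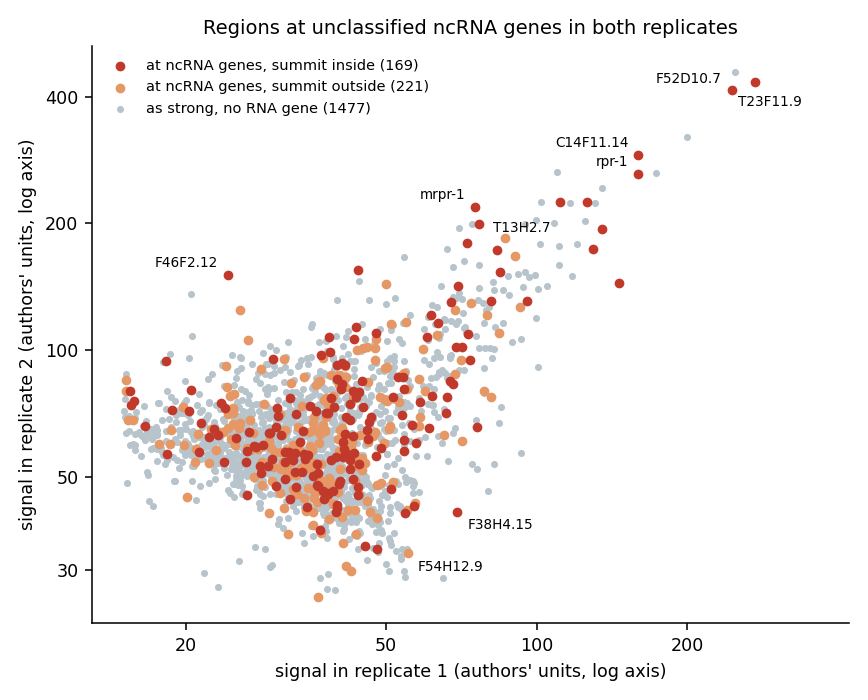
Signal of each region in replicate 1 (x axis) and replicate 2 (y axis), in the authors' units on log axes, for regions at ncRNA genes with the summit inside the gene (red, 169) or outside it (orange, 221) and for as strong regions with no RNA gene (grey, 1477). The strongest regions, such as T23F11.9 at 272 and 432, are high in both replicates, whereas most regions form a cloud near the signal minimum in which the replicate values are spread widely.

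The authors' optimal set, which passed their threshold of reproducibility, held 112 of the 397 regions (28.2%, interval 24.0% to 32.8%), against 28.1% of all 2263 regions at the minimum and 19.8% of as strong regions with no RNA gene. Of the 2532 weaker regions it held 0. The weakest chosen region in the optimal set had a signal of 115.8 and the strongest outside it 115.6, so membership restates the pooled signal.

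The RNase P and RNase MRP RNA genes carried some of the strongest regions. At rpr-1, on chromosome I from 13463955 to 13464207 inside an intron of ints-8 on the opposite strand, the first summit lay 9 bp into the gene. Its signal was 417 in the pooled list, 159 in replicate 1 and 262 in replicate 2, which places it at ranks 22 and 25 of the replicate lists. A second summit 214 bp into rpr-1 had a signal of 199, with 67.7 in replicate 1 and 130 in replicate 2. ints-8 encodes a subunit of Integrator, the complex that processes the 3′ ends of snRNAs. At mrpr-1, on chromosome II from 7200233 to 7200418 and outside coding genes, the summit lay 21 bp into the gene. The signal was 289 in the pooled list, 75.3 in replicate 1 and 219 in replicate 2, so that this region ranked 172 in replicate 1 and 44 in replicate 2. A weaker region just beyond the 3′ end of mrpr-1, 221 bp from its start, had a signal of 63.9 and is not among the chosen ones.

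All 5 genes of signal recognition particle RNA had at least 1 chosen region within 500 bp. At srpr-2.2, in an intron of the kinesin gene klp-6, summits lay 240 bp and 27 bp into the gene, with pooled signals of 347 and 333. In replicate 1 these had 126 and 112, and both overlapped the same replicate 2 region with a signal of 224. At srpr-1.2, in an intron of ckb-2, the summits lay 52 and 251 bp into the gene, with pooled signals of 135 and 125. In replicate 1 both matched 1 region with a signal of 40.02, and in replicate 2 they had 92.0 and 85.3. The pairs thus place 1 summit near the start and 1 near the end of a gene of 299 bp.

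The remaining srpr genes had 1 chosen region each. At srpr-2.1 the summit lay 247 bp into the gene (signal 133, with 44.8 in replicate 1 and 84.3 in replicate 2). At srpr-3 it lay 108 bp into the gene, with a signal of 89.5, of 32.7 in replicate 1 and of 54.7 in replicate 2, and it was the only chosen region at an srpr gene outside the optimal set. At srpr-1.1 the chosen summit lay 433 bp from the start, beyond the 3′ end and in a coding exon of pals-26, with a signal of 185, of 84.0 in replicate 1 and of 110 in replicate 2. A weaker region inside srpr-1.1, at 205 bp, had a signal of 58.9. Apart from srpr-3, the copies share most of their sequence. Gene identity was 94.0% to 99% between the 4 copies on chromosome III and 81.7% to 82.7% between these and srpr-3. Of the 32-base stretches in each gene, 13.1% (srpr-1.1) to 29.9% (srpr-2.2) occur once in the nuclear genome for those 4, and 100% for srpr-3. Whether each of the 4 copies carries signal of its own, and at what level, is therefore uncertain. How the authors placed repeated reads is not given in the sources used here.

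**Figure D2:**
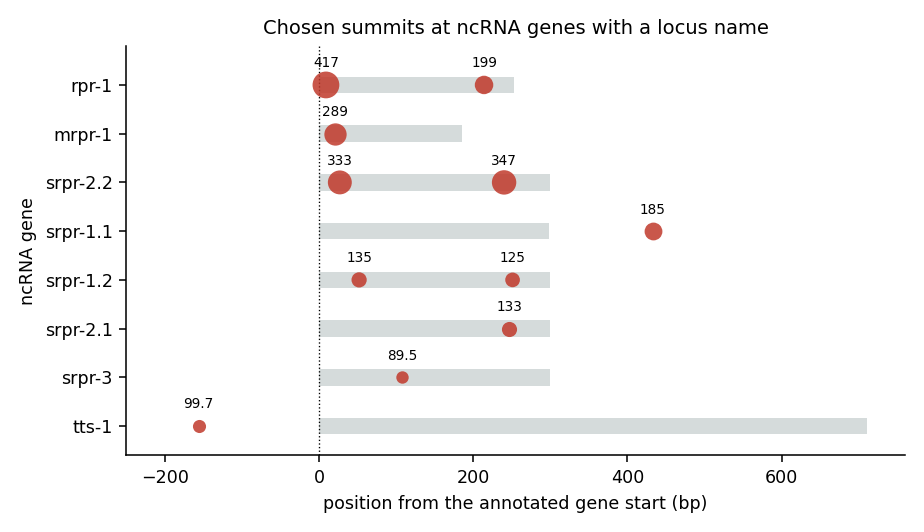
Position of the chosen summits (red, area in proportion to the pooled signal, which is printed above each) from the annotated start of ncRNA genes with a locus name; grey bars span the genes. rpr-1 and mrpr-1 have a summit 9 and 21 bp from the start, srpr-2.2 and srpr-1.2 have 1 summit near each end, and the summits at srpr-1.1 and tts-1 lie outside the gene.

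Of the 14 ncRNA genes with a locus name, 8 had a chosen region within 500 bp. Over all 7764 ncRNA genes the share was 7.17% (557 genes), and 3208 further genes had only a weaker or left-out region. Beside the RNase and srpr genes, the other was tts-1, a long non-coding RNA known to associate with ribosomes in long-lived worms, with a region at position -156 (signal 99.7, 44.3 in replicate 1 and 53.6 in replicate 2). Its relative by name, tts-2, had 5 regions below the minimum, with signals of 36.5 to 67.3, and linc-171 had 1 with a signal of 74.5. The region at lfor-1 (signal 133) lay at a gene of a left-out class. No region of any signal was found within 500 bp of yrn-1, the homologue of Y RNA, of rncs-1, an inhibitor of Dicer activity, or of lfor-2. In this small set a chosen region lay within 500 bp of every srpr, rpr and mrpr gene. The srpr copies on chromosome III cannot be counted as separate cases, since they share most of their sequence.

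The 2 strongest chosen regions lay at unnamed genes. At T23F11.9 the summit, at 4666895 on chromosome III, lay 42 bp into the gene, with a signal of 697, of 272 in replicate 1 and of 432 in replicate 2. The interval of this region, from 4666781 to 4667195, held a second summit 140 bp into the overlapping gene T23F11.8 on the opposite strand (signal 403, with 146 in replicate 1 and 145 in replicate 2). This second summit also lay inside T23F11.9. The first and second summits lay 1523 and 1724 bp before the start of T23F11.4 itself. Sequence from this neighbourhood may be present in the transgene, and reads from the insertion and from the native locus cannot be separated in these lists.

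At F52D10.7 on the X chromosome the summit lay 40 bp into the gene, with a signal of 656, of 245 in replicate 1 and of 413 in replicate 2. The adjacent F52D10.9 held a summit 123 bp from its start, with a signal of 316, of 135 in replicate 1 and of 194 in replicate 2. Both lay 530 and 735 bp from a start of ftt-2, which encodes a 14-3-3 protein. At C14F11.14, also on X, the summit lay 23 bp into the gene, with a signal of 448, of 159 in replicate 1 and of 291 in replicate 2. The summit window of this gene, shown above, ends in most of the letters of a relaxed form of the B box, an internal promoter element of tRNA genes, and does not hold the strict form.

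The next regions by signal lay at F16A11.7 in an intron of ppfr-1 (345), T13H2.7 (279), W01D2.7 (258), F26E4.16 (257), F08G2.13 (247), T28F4.7 in an intron of T28F4.1 (247), F57B10.17 (239) and F31F7.6 (227). The last of the 20 strongest were C17G1.9 in an intron of the tetraspanin gene tsp-21 (213), R10E11.12 (211) and K10H10.14 (208). Of these 20 regions, 17 had the summit inside an ncRNA gene. The exceptions were W01D2.7 and R10E11.12, with the summit beyond the 3′ end, and F26E4.16, whose start lay 500 bp away. The F26E4.16 summit was 4 bp from the start of cox-5B, which encodes a subunit of cytochrome c oxidase, and so lay at a coding start rather than at the ncRNA gene.

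The 3 highest and 3 lowest ratios of replicate 2 to replicate 1 are given here. F46F2.12, in an intron of the casein kinase gene kin-20, had 24.2 in replicate 1 and 151 in replicate 2, a ratio of 6.24 against the median of 1.69. It stood at rank 8978 in replicate 1 and 120 in replicate 2, although its pooled signal was 193. F09F9.9 (ratio 5.59) and C13G3.8 (ratio 5.29) followed, both with 15.2 in replicate 1. These stood at ranks 28895 and 28950 there, close to the lowest value of that list, 14.87, so both ratios rest on values near its floor. A ratio exists only for the 390 chosen regions with a region in replicate 1. At the other end, F54H12.9 had 55.5 in replicate 1 and 32.9 in replicate 2 (ratio 0.593), F38H4.15 had 69.5 and 41.4 (ratio 0.595) and Y69A2AR.37 had 42.6 and 29.8 (ratio 0.700). The replicate 2 value was the higher one in the first 3 and the replicate 1 value in the last 3.

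The signal minimum cut through a continuous range. The 3 members just inside it were K02A4.11 (80.06), T04C12.25 (80.05) and ZK377.4 (80.03), and the 3 regions just outside were W03G11.15 (79.94), C33G3.10 (79.92) and C14F11.9 (79.89). All 6 had the summit inside the gene. W03G11.15 overlapped no region of replicate 1.

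Summits of the chosen regions lay close to the ncRNA genes. Of the 397, 172 were inside a gene (43.3%, interval 38.5% to 48.2%), 29.0% upstream of the nearest one and 27.7% downstream. Of the 2532 weaker regions, 26.0% were inside, 37.8% upstream and 36.3% downstream. Summits outside lay a median of 101 bp from the gene, against 180 bp for weaker regions. The length of the nearest gene hardly differed, with a median of 147 bp for chosen regions, 144 bp for weaker ones and 140 bp over all ncRNA genes.

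Within the genes, chosen summits tended towards the start. The median position of the 172 summits inside was 76 bp from the start, or 42.1% of the gene length, against 92 bp and 54.03% for the 658 weaker ones. The 50 bp after the start held 62 of the 397 chosen summits (15.6%) and 191 of the 2532 weaker ones (7.54%). These shares are of all summits, of which 43.3% of chosen and 26.0% of weaker ones were inside a gene. The gap between them therefore restates in part the difference in summits inside. The 100 bp before the start held 15.6% and 11.7%. The intervals are 444 bp wide for 391 of the 397 regions, and fragments were 200 to 800 bp long, so a position carries an uncertainty that the lists do not give. These differences between sets of regions were not tested.

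**Figure D3:**
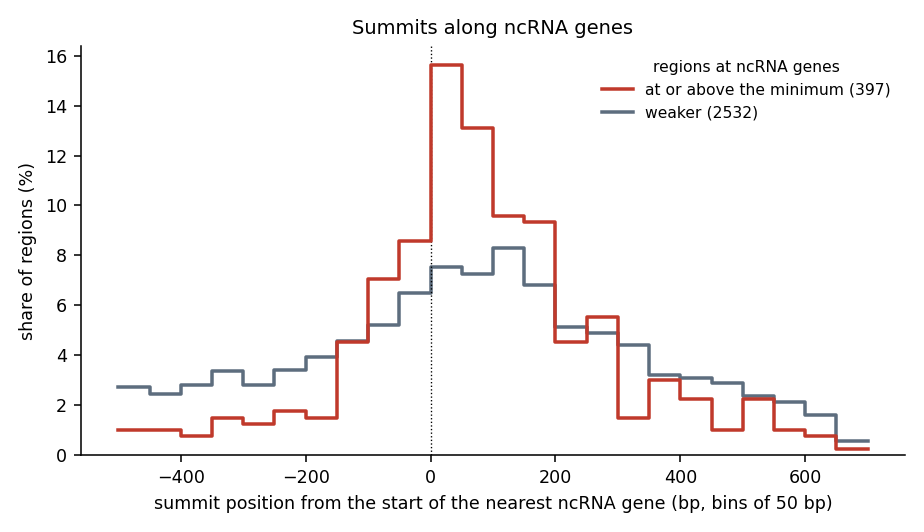
Share of regions (y axis, %) by the position of the summit from the start of the nearest ncRNA gene (x axis, bp, in bins of 50 bp) for the 397 chosen regions (red) and 2532 weaker regions (grey-blue); 5 and 52 regions lie beyond the right edge at 700 bp. The chosen regions peak in the 50 bp after the start, with 15.6% against 7.54% of weaker regions, as shares of all summits inside or outside a gene.

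The share of regions at ncRNA genes was higher in every class of signal above the minimum than in every class below it. Of regions clear of the left-out classes, 8.1% lay within 500 bp of an ncRNA gene at a signal under 40, 12.03% at 60 to 80, 18.0% at 80 to 100 and 26.2% at 120 to 150. Above 300 it was 9 of 21 regions (42.9%, interval 24.5% to 63.4%). The share with the summit inside an ncRNA gene was 1.6% in the lowest class, 6.82% at 80 to 100 and 42.9% above 300, where all 9 summits were inside. The top class is small and its interval wide, and 2 of its 9 regions lay at T23F11.9 and T23F11.8.

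**Figure D4:**
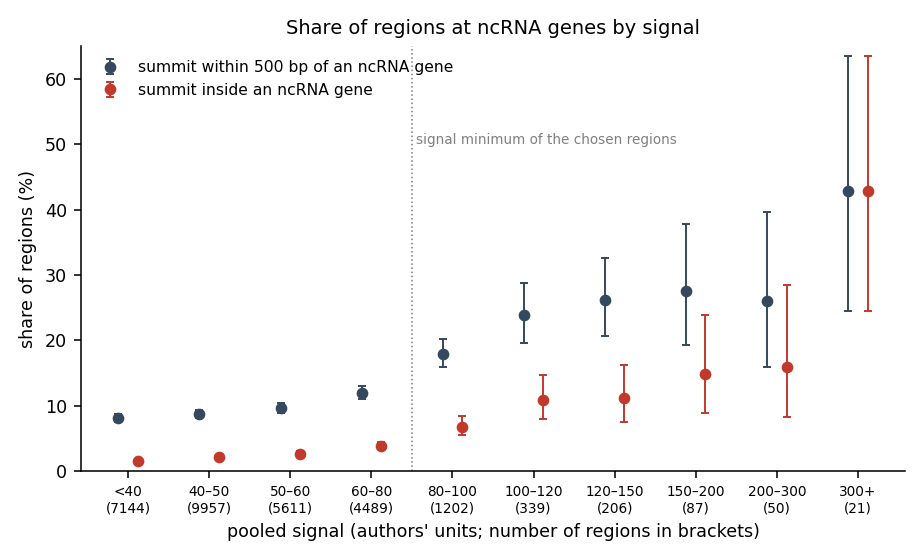
Share of regions (y axis, %) with the summit within 500 bp of an ncRNA gene (dark blue) or inside one (red) by pooled signal (x axis, authors' units, number of regions in brackets), among regions clear of the left-out classes; bars are 95% Wilson intervals. Both shares are higher in each class above the minimum of 80 than in each class below it, and both are 42.9% in the 21 regions above 300.

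Most chosen regions lay outside protein-coding genes. The summit was outside coding genes in 252 of 397 (63.5%), in an intron in 120 (30.2%), in a coding exon in 19 (4.79%) and in an untranslated region in 6 (1.51%). The corresponding shares were 50.6%, 33.5%, 11.93% and 3.99% for weaker regions at ncRNA genes, and 50.7%, 28.5%, 15.2% and 5.57% for as strong regions with no RNA gene. The ncRNA gene itself lay outside coding genes for 63.7% of chosen and 53.8% of weaker regions, and antisense to one for 26.2% and 32.3%. More than 1 ncRNA gene lay within 500 bp of 155 chosen regions (39.0%), against 31.6% of weaker ones. A summit then has no single ncRNA gene, and the nearest was taken. Between genes at the same distance, as where a summit lay inside overlapping genes, the lower gene identifier decided. Positions along the genes rest in part on that order. The annotation gives some names to more than 1 gene, as for F16A11.7, and the 557 genes near chosen regions carry 535 names.

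Protein-coding starts lay near fewer of the chosen regions than of as strong regions elsewhere. A start lay within 1000 bp of 191 of 397 summits (48.1%, interval 43.2% to 53.0%), against 40.7% of weaker regions at ncRNA genes and 55.5% of as strong regions with no RNA gene (interval 53.0% to 58.0%). Within 500 bp the shares were 30.7%, 26.4% and 40.4%. The share of chosen regions within 1000 bp was 59% at a signal minimum of 120 (interval 49.2% to 68.1%) and 53.6% in the optimal set. As strong regions were not recounted at these settings, so the order there is not known. In all, 210 of 19973 coding genes (1.05%) had a chosen region within 1000 bp of a start.

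The coding genes next to the 20 strongest regions had varied roles. They included pcrg-1 (295 bp from the mrpr-1 summit), spat-3, a RING-domain protein of chromatin regulation (593 bp from T13H2.7), and W01D2.3 (289 bp from W01D2.7). The trehalase gene tre-1 and dad-1, which encodes a subunit of the oligosaccharyltransferase, lay 48 and 391 bp from F57B10.17. The kinase gene mrck-1 lay 251 bp from F31F7.6, tsp-21 157 bp from C17G1.9, the acetyltransferase gene cbp-1 945 bp from R10E11.12 and the dehydrogenase gene dhs-8 938 bp from K10H10.14. T13C5.6 and C14F11.7 lay 171 and 705 bp from the C14F11.14 summit.

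Coding genes were also counted by 11 lists defined by gene name. Chaperone genes had a chosen region at 5 of 59 (8.47%), with hsp-1 (signal 207 at F26D10.23, 74.0 in replicate 1 and 130 in replicate 2), dnj-19 (174 at C24G6.10), dnj-14 (164 at DL2.1) and cct-8 (141 at Y55F3AR.4) the strongest. These encode an Hsp70, a pair of J-domain proteins and a subunit of the cytosolic chaperonin. Ribosomal protein genes had one at 5 of 81 (6.17%), led by rps-1 (153 at F56F3.10, 43.2 in replicate 1 and 106 in replicate 2), rpl-11.2 (114.96 at AH9.7), rps-6 (85.3 at Y71A12B.31) and rpl-1 (81.8 at Y71F9AL.19, with no region in replicate 1). As strong regions with no RNA gene were at 4.92% of all coding genes, 18.6% of the chaperone genes and 19.8% of the ribosomal protein genes, so the ncRNA-linked regions made up the smaller part at both.

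Nuclear hormone receptor genes had a chosen region at 4 of 269 (1.49%), namely nhr-47 (174, the same region as dnj-19), nhr-88 (96.1), nhr-25 (95.2) and nhr-3 (82.6). A single gene had one in the lists of histones (his-24, 89.3, of 72), collagens (col-38, 80.9, of 156), homeobox genes (ceh-39, 126, of 63) and translation factors (eef-1B.1, 91.8, of 33). No chosen region lay at any of 1172 chemoreceptor, 31 aminoacyl-tRNA synthetase, 30 splicing or 32 RNA polymerase genes. The share over all coding genes was 1.05%, and counts of 1 to 5 genes leave the shares of the lists imprecise.

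The X chromosome held 132 of the 397 regions (33.2%, interval 28.8% to 38.02%), against 31.0% of weaker regions at ncRNA genes and 16.4% of as strong regions with no RNA gene. X also carries 32.5% of all ncRNA genes, so the share of chosen regions was close to that of the genes. Of strong regions clear of the left-out classes, 34.8% on X were at an ncRNA gene, 23.6% on V and 15.3% to 16.6% on the other autosomes. Counted per 100 ncRNA genes, the chosen regions numbered 5.24 on X, 7.46 on III, 6.55 on I, 4.32 on II, 4.26 on V and 4.06 on IV. The optimal set took 24.2% of the chosen regions on X and 30.2% of those on the autosomes.

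Base composition at the summits was higher in GC. The median GC content of the 100 bp on each side of the summit was 48.3% for chosen regions, 41.8% for weaker regions at ncRNA genes and 45.3% for as strong regions with no RNA gene. It was 50.7% for the 112 in the optimal set. Soft-masked sequence made up a median of 10.4%, 18.4% and 19.4% of the window in these 3 sets, and more than 50% of it in 6.05%, 9.56% and 14.5% of regions. Neither GC content nor signal was matched between the sets in any comparison of short sequences.

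**Figure D5:**
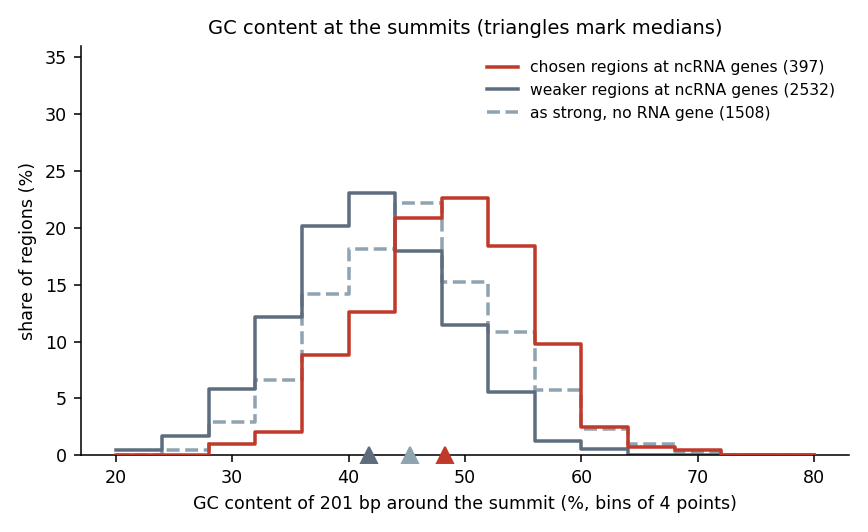
Share of regions (y axis, %) by GC content of the 100 bp on each side of the summit (x axis, %, bins of 4 points) for chosen regions (red, 397), weaker regions at ncRNA genes (grey-blue, 2532) and as strong regions with no RNA gene (dashed, 1508), with triangles at the medians of 48.3%, 41.8% and 45.3%. The distributions overlap widely, and the chosen regions are shifted towards higher GC.

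Repeats of AC were more frequent at the chosen summits, and GAGAGA was so on the autosomes. Of all 6-base sequences, counted on both strands in these windows, those with the widest excess over as strong regions with no RNA gene were ACACAC (32.5%, against 14.9% of weaker and 18.3% of as strong regions), CACACA (34.8%, 16.9% and 21.4%), AGAAGA (35.8%, 28.6% and 22.9%), AAGAAG (31.7%, 25.5% and 20.6%) and AGTGTG (24.4%, 11.2% and 14.2%). The first 2 and the last overlap each other, as do the other 2. Deficits of similar size were found in AT-rich sequences. AAAATT was in 23.2% of chosen, 40.5% of weaker and 37.6% of as strong regions, and AAAAAT in 29.2%, 50.9% and 43.04%. GAGAGA was in 38.04% (interval 33.4% to 42.9%), 22.8% and 29.9%. On the autosomes alone its shares were 41.9%, 23.9% and 29.4%, whereas on X it was in 30.3% of chosen, 20.4% of weaker and 32.4% of as strong regions, so that there it was not more frequent than in as strong regions. These 6-base sequences were picked for their difference, so their shares are a description.

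Longer AC runs, looked for after the 6-base counts were seen, showed the same order. ACACACAC was in 48 chosen windows (12.1%, interval 9.24% to 15.7%), in 5.02% of weaker and in 7.36% of as strong windows, and in 2.62% of all windows of the pooled list. On the autosomes alone the shares were 11.3%, 4.93% and 6.66%, and on X they were 13.6%, 5.22% and 10.93%. The intervals of chosen and as strong regions overlapped widely on X (8.80% to 20.5% and 7.62% to 15.4%). On the autosomes they overlapped narrowly (8.05% to 15.7% and 5.41% to 8.17%). Of the 48, 26 were in the optimal set (54.2%, interval 40.3% to 67.4%), against 86 of the other 349 (24.6%, interval 20.4% to 29.4%). Among as strong regions with no RNA gene the same shares were 30.6% and 18.97%. Since the optimal set restates the pooled signal that chose the regions, these shares are a description. Some of the 48 windows are also neighbours, as at T13H2.7 and Y71H9A.9, and are not independent. The longest runs of alternating A and C were 120 bases at F09F3.17, 113 at T13H2.7, 111 at Y71H9A.9 and 107 at F16A11.7, with 46 at F46F2.12, the region with the highest ratio between replicates. Part of these windows is thus simple repeat, where placement of reads may be less certain, and its part in the signal was not tested.

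Other short sequences differed in either direction. TTTTTT, a run that ends transcription by RNA polymerase III, was in 32.2% of chosen, 48.7% of weaker and 40.3% of as strong windows. TATAAA was in 8.06%, 13.0% and 10.74%. CTGCGTCTC was in 5.54%, 2.05% and 8.09%, and ACGCAG, which overlaps its reverse complement, in 13.6%, 6.79% and 16.3%. GGGCGG was in 14.6%, 7.74% and 12.3%, CACGTG in 4.53%, 2.92% and 5.44% and TGATAA in 9.57%, 11.89% and 8.49%. No direction is drawn from these shares, since the windows also differ in GC content.

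The letters of tRNA promoters were rare in these windows, from which tRNA genes had been left out by the rule. The B box in its strict form, GGTTCGA with any 2 bases before CC, was in 0 of 397 chosen windows (upper Wilson limit 0.958%), and in 0.663% of as strong windows. With any base allowed at its G after GGTTC, a form tried after the data were seen, it was in 4 (1.01%), at C14F11.14, T28D6.15, ZK816.8 and T22B2.9, all with the summit inside the gene. It was in 0.434% of weaker and 0.729% of as strong windows, and in 50.3% of the 358 as strong windows at left-out classes. The A box, TGG with any 3 bases before AG, any base and GG, also tried later, was in 19 chosen windows (4.79%), in 2.33% of weaker and 3.18% of as strong ones. T28D6.15, ZK816.8 and T22B2.9 held both. The stronger srpr-2.2 window and the srpr-2.1 window held the A box letters alone, as did windows at other genes. The other srpr-2.2 window and those at srpr-1.1, srpr-1.2 and srpr-3 held neither.

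Upstream of the genes, letters shared with snRNA genes were found at rpr-1 and mrpr-1. AACCC followed 6 bases later by TGTC, noticed in mrpr-1 and then searched within 100 bp upstream of every gene start on the gene strand, was at position -66 of rpr-1 and -68 of mrpr-1. Over all genes it was upstream of 14 of 7764 ncRNA genes (0.18%), 33 of 129 snRNA genes (25.6%), 27 of 346 snoRNA genes (7.8%) and 6 of 19973 coding genes (0.03%). Of the 14 ncRNA genes, 2 had a chosen region, 7 had a region of any signal, these 2 included, and 7 had none. Over all 7764 ncRNA genes, 7.17% had a chosen region and 51.5% had no region, so the count with none was near the general share. rpr-1 and mrpr-1 also held TATA letters at -30 and -34. TATAAA or TATATA within 45 bp upstream was found at 10 of the 165 ncRNA genes with a chosen summit inside (6.06%, interval 3.33% to 10.8%), at 23 of all 557 with a chosen region within 500 bp (4.13%), at 3.72% of the 7207 with no chosen region, at 15.5% of snRNA genes and at 9.92% of coding genes. A match is a description of letters and not a mapped site.

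Most of the chosen windows were unique in the genome. Every 32-base stretch of the window occurred once in 355 of 397 (89.4%), against 91.8% of weaker and 86.8% of as strong windows with no RNA gene. The other 42 chosen windows, 17 of them in the optimal set, held at least 1 repeated stretch. Fewer than 50% of the stretches were unique in 5 chosen windows, at srpr-2.2, srpr-1.2, F09F3.17, F19B6.9 and C18H7.14. A stretch of 20 bases in common with a gene of a left-out class was found in 5 others, 4 with a miRNA gene and 1, C25F6.10, with a snoRNA gene. Their signals were 81.8 to 112.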

How the data were processed

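Per the labels, 2 biological replicates were profiled by chromatin immunoprecipitation and sequencing. The authors deposited 1 list per replicate, 1 for the pooled replicates and the optimal set, in ce11. Column 7 of each list, the signal value computed by the authors per region, was used. Per the file names, the larger lists are inputs to the reproducibility step that gave the optimal set and include background. Versions, aligner, caller, threshold and signal scale were not given in the sources used here, depth is unknown, and the control named in the labels was not analysed here.

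Summits were joined to Ensembl release 115 genes of WBcel235 and to the RefSeq copy of that assembly. A region took the signal of the overlapping replicate region (at least 1 bp) with the nearest summit. Distances run from the summit to the gene body, 0 inside, and to any transcript start of coding genes. Windows held the summit and 100 bp on each side. The members and lists were chosen with earlier results of these data known. All comparisons are descriptions with 95% Wilson intervals, which treat regions as independent and cover counting error only, and no test was run. With 1 group, no group comparison was possible. Genes were named by a rule: the 20 strongest regions, those at genes with a locus name, those near T23F11.4, 3 at each end of the replicate ratio and of the signal minimum, and up to 4 per gene list. The 5 6-base sequences with the widest excess are given, with AAAATT and AAAAAT as the widest deficits. T28D6.15 and others outside this rule are named only where a count is small, and F09F3.17 and Y71H9A.9 for repeat length, all chosen after their values were seen. Distance and motif functions were checked on simulated data. Python 3.11.15, pandas 2.3.3, scipy 1.17.1 and Biopython 1.88 were used.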

Additional observations from a re-analysis of the deposited data

How the results depend on the processing

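No test was run, so an alternative is read as moved where its value left the 95% interval, or the 1.5-fold range of a count. Of 72 alternative values over 8 results, 49 stayed within it and 23 moved. With a signal minimum of 120, the number of regions was 100, the share in the optimal set 100%, inside an ncRNA gene 53%, within 1000 bp of a coding start 59%, among the strongest of both replicates 97%, the median GC content 49.75% and the share of ncRNA genes with a region 1.842%. With only the optimal set these were 112, 100%, 51.79%, 53.57%, 96.43%, 50.75% and 2.112%, and the share on X was 28.57%. With a distance of 200 bp, 50.88% were inside and 5.873% of ncRNA genes had a region, and with 1000 bp these were 36.92% and 8.733%. A coding start lay within 500 bp of 30.73%. The share among the strongest of both replicates was 40.3% where replicate summits had to lie within 100 bp. GC content was 49.5% in a window of 50 bp on each side. These settings change what is chosen or counted. Leaving out the 2 regions near T23F11.4 left 395 and moved none of the 8 results.

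With the rule applied to the 2263 strongest regions of 1 replicate at a time (without replicate 1 or 2), the number was 374 to 381, the share inside 39.04% to 43.31%, the share near a coding start 47.51% to 48.66%, the median GC 47.26% to 48.76% (the lower value, without replicate 2, moved), the share of ncRNA genes 6.775% to 6.813% and the share on X 29.4% to 33.42%. Of the 397 regions, 238 were found from replicate 1 alone and 280 from replicate 2 alone. The optimal and both-replicate shares could not be computed without a replicate. No paired analysis was possible because both samples belong to 1 group. Depth is unknown and limits every value.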
